A study of Homo sapiens with 9 samples.

Results

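Gene expression in H460 cells carrying an inducible wild-type RUNX3 was compared between 16 h and 8 h of induction, so that the values describe the late part of the response. Genes were taken from the table of H460-vec and H460-ERT2-RUNX3 cells if they reached 1 FPKM at 8 h or at 16 h, which left 11753 of 24331 genes. FPKM is the number of sequenced fragments scaled by the length of the transcript and by the number of mapped fragments in the library. The table lists genes by assembled locus identifiers, and 1145 of these were paired with a symbol, 1144 of them on chromosome 1 together with MMP1 on chromosome 11. Of the 1145, 575 passed the FPKM minimum, and a change from 8 h to 16 h is given for named genes of these 575 only. A few other genes are named by their levels. The 575 comprised 520 genes at 1 FPKM or more in both libraries, 32 at that level at 8 h alone and 23 at 16 h alone, and a gene of the last 2 kinds passed through the library in which it was high.

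The RNA came from NCI-H460, a line of human large cell lung carcinoma with activated K-RAS, wild-type p53 and inactive RUNX3. H460-vec is the control line (genotype label RUNX3 inactivation), H460-ERT2-RUNX3 carries an insertion of wild-type RUNX3 fused to the ligand-binding domain of an estrogen receptor, and H460-ERT2-RUNX3-K94/171R carries the same fusion with a RUNX3 mutant that does not bind the chromatin reader BRD2 (labels ERT2-RUNX3 WT insertion and ERT2-RUNX3 MT insertion). All are stable transfectants, and whether each is 1 clone was not given in the sources used here. Every culture was starved of serum for 24 h and, apart from the 0 h libraries (treatment label control, against TAM later), then received 10% serum together with 1 μM 4-hydroxytamoxifen (4-OHT) for 8 h or 16 h, so the effect of serum and that of 4-OHT cannot be told apart within a line. There was 1 library for each line and time, without replicates, and no test of difference was made.

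RUNX3 is a DNA-binding transcription factor of the Runt family that acts as a tumor suppressor in several epithelia and takes part in the decision of a cell to enter S phase or to stop in G1. In the fusion used here, the receptor domain holds the protein in the cytoplasm until 4-OHT binds it, and the protein then enters the nucleus. Genes that respond early to a nuclear transcription factor can be its own targets, whereas changes that appear hours later can pass through the products of other genes.

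A change is given as log2((FPKM at 16 h + 0.05)/(FPKM at 8 h + 0.05)), and a gene counted as risen or fallen when it passed 2 on this scale, a 4-fold difference. Between 8 h and 16 h, 505 of the 11753 genes rose (4.30%) and 415 fell (3.53%) in H460-ERT2-RUNX3 cells. Past a threshold of 1, 1680 genes were higher (14.3%) and 1762 were lower (15.0%), and the median over all genes was -0.01. The same interval in H460-vec cells, which share no library with this comparison, moved 29 of 11551 genes up (0.251%) and 32 down (0.277%) past 2, and 178 up (1.54%) and 78 down (0.675%) past 1. In the K94/171R line, whose table was made separately, 42 of 11280 genes lay above 2 (0.372%) and 13 below -2 (0.115%), with 300 (2.66%) and 173 (1.53%) past 1. The spread of the log2 changes over genes, as an SD, was 1.33 in H460-ERT2-RUNX3, 0.69 in H460-vec and 0.51 in K94/171R. The 5% and 95% quantiles were -1.77 and 1.85 in H460-ERT2-RUNX3, -0.47 and 0.60 in H460-vec, and -0.69 and 0.79 in K94/171R. By quantiles H460-vec was thus narrower than K94/171R, the reverse of their order by SD. The distance between the 8 h and 16 h libraries was thus larger in the wild-type line than in both other lines. With the added demand that a change lay 2 or more beyond that of H460-vec, 399 risen genes (3.39%) and 356 fallen genes (3.03%) were left.

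**Figure D1:**
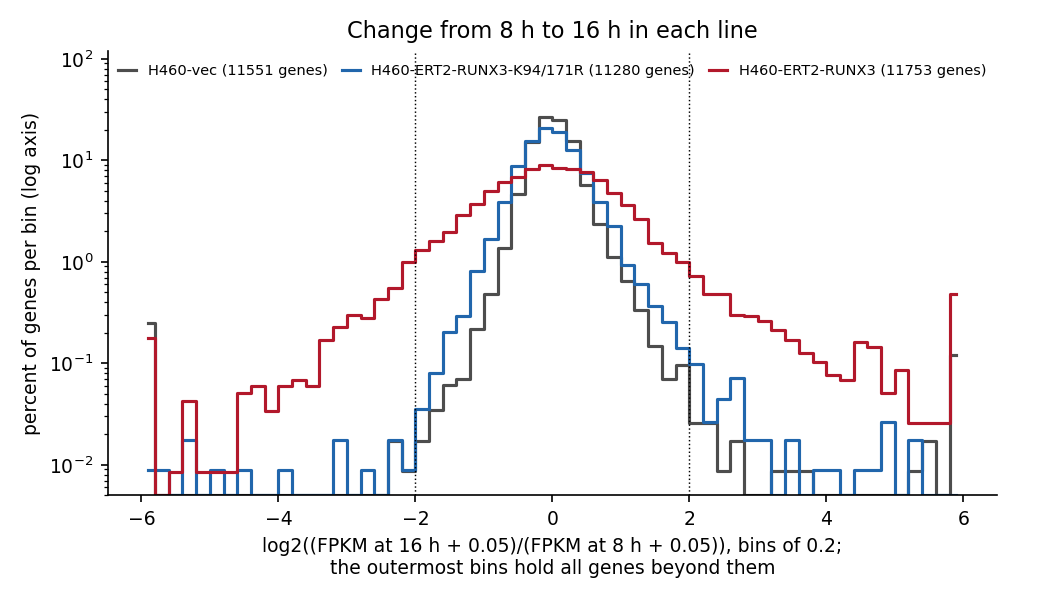
Share of genes (percent per bin of 0.2, log axis) by log2 change from 8 h to 16 h in H460-ERT2-RUNX3, H460-vec and H460-ERT2-RUNX3-K94/171R cells, 1 library per line and time, with dotted lines at the threshold of 2 and genes beyond the axis placed in the outermost bins. The curve of H460-ERT2-RUNX3 is the widest, with 4.30% of genes above 2 and 3.53% below -2, against 0.251% and 0.277% in H460-vec.

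The 505 risen genes summed to 7873 FPKM at 8 h and 74068 FPKM at 16 h, which was 1.26% and 9.48% of all FPKM in these libraries. The 415 fallen genes went from 16963 to 1804 FPKM, or from 2.70% to 0.231% of the sum. In H460-vec the same risen genes summed to 3635 FPKM at 8 h and 3845 FPKM at 16 h, and the same fallen genes to 14045 and 17371 FPKM. The sum over all genes was not constant, at 554359, 627094 and 780952 FPKM at 0, 8 and 16 h in H460-ERT2-RUNX3, and 595679, 590682 and 641519 FPKM in H460-vec. The 16 h library of H460-ERT2-RUNX3 had the highest sum of the table and the largest share in its 10 most abundant genes, 13.2% against 9.26% at 8 h. When the libraries were rescaled to the same sum, changes moved by about -0.32, less in genes of low FPKM, the median over genes became -0.33, and the counts turned from 505 risen and 415 fallen to 368 risen and 655 fallen. The share of risen genes among those past 2 was thus 54.9% as listed and 36.0% with equal sums. Which scale is closer to the RNA per cell was not tested.

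Of the 505 risen genes, 275 stood below 1 FPKM at 8 h, 59 of them listed at 0, and of the 415 fallen genes, 227 stood below 1 FPKM at 16 h. Counting only genes with at least 1 FPKM in both libraries, a choice made after seeing the data, left 230 risen and 188 fallen genes. Among the 575 named genes, 27 rose and 21 fell, 86 lay above 1 and 82 below -1, and their median was -0.09. The named genes thus held risen and fallen members in shares (4.70% and 3.65%) near those of the whole table. With an Ensembl identifier in the annotation, 551 of them lay on the plus strand and 1 on the minus strand, so strand and chromosome, not function, set which genes have a name.

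RUNX3 itself was not among the paired symbols, so its level in H460-ERT2-RUNX3 was not analysed here. In the K94/171R table it was listed at 2.12, 0.712 and 2.11 FPKM at 0, 8 and 16 h. The level was low at all times, and whether reads of the inserted fusion were counted there was not tested. Markers of leukocytes and endothelium were near 0. The 10 leukocyte markers summed to 0.229 FPKM at 8 h and 0.374 FPKM at 16 h in H460-ERT2-RUNX3, with CD53 the most abundant at 0.298 FPKM and 8 of 10 listed at 0 at 16 h. The 4 endothelial markers summed to 0 and 0.0209 FPKM at these times, with 3 of 4 at 0 in all 6 libraries of the table. The 5 fibroblast markers summed to 14.4, 7.74 and 1.48 FPKM at 0, 8 and 16 h, most of it OLFML3 at 0 h and 8 h, and DDR2 (0.745 FPKM) and OLFML3 (0.726 FPKM) were the most abundant at 16 h. The 5 epithelial markers summed to 98.3 FPKM at 8 h and 116 FPKM at 16 h, of which SFN made up 97.6 and 113 FPKM.

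Among named genes, the 2 largest rises were those of MMP1 and IL24, which encode secreted proteins. MMP1, the interstitial collagenase that cleaves fibrillar collagen (XLOC_004491, locus chr11:102654407-102714342 of hg19), stood at 0.127, 0.193 and 505 FPKM at 0, 8 and 16 h in H460-ERT2-RUNX3. It stood at 0.193, 0.246 and 0.133 FPKM in H460-vec and at 0.0363, 0.0354 and 0 FPKM in K94/171R. The 16 h library of the wild-type line was the only one of 9 with more than 1 FPKM, and the change from 8 h was 11.02. Its locus spans more than the gene, so reads of a neighbour may be included. Since the 8 h value was low, the change depended on the pseudocount and was 8.73 with a pseudocount of 1.

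IL24, a cytokine of the IL-10 family (XLOC_001012, chr1:207070788-207095378), followed the same course with 0.0758, 0.0736 and 102 FPKM at 0, 8 and 16 h, a change of 9.69 from 8 h to 16 h that was 6.59 with a pseudocount of 1. In H460-vec its FPKM was listed as 0 at each time, and it was 0, 0 and 0.0700 FPKM in K94/171R. Its change from 0 h to 8 h was -0.03, so the rise lay after 8 h. IL19 and IL20, neighbouring genes of the same family, were both listed at 0 at 8 h and 16 h.

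CD55, the complement decay-accelerating factor on the cell surface (XLOC_001016, chr1:207494817-207534311), was already abundant at 0 h. Its FPKM was 78.2, 156 and 1805 at 0, 8 and 16 h in H460-ERT2-RUNX3, 84.2, 70.9 and 119 in H460-vec and 123, 111 and 107 in K94/171R. It was highest in the 16 h library of the wild-type line, 11.5-fold above 8 h on the FPKM + 0.05 scale, and the other 8 libraries stayed between 70.9 and 156 FPKM. Because of its level, CD55 alone accounted for a larger gain in FPKM than MMP1 and IL24 together. CD46, another complement regulator, went from 130.4 to 155 FPKM, a change of 0.25, which was negative after rescaling to the same sum.

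IL6R, a subunit of the interleukin-6 receptor (XLOC_000741, chr1:154377669-154441926), had 8.79, 5.61 and 33.2 FPKM at 0, 8 and 16 h. It had 6.96, 4.12 and 4.75 FPKM in H460-vec and 10.7, 8.20 and 10.0 FPKM in K94/171R, so that all 3 lines were lower at 8 h than at 0 h, and the wild-type line alone was above its 0 h level at 16 h. Its change from 8 h to 16 h was 2.55. SLAMF7, a receptor best known from natural killer and plasma cells, went from 0.147 to 4.59 FPKM between 8 h and 16 h (4.56, or 2.29 with a pseudocount of 1) and was below 0.05 FPKM in all H460-vec libraries. MFSD2A, a membrane transporter of lysophospholipids, went from 3.48 to 18.5 FPKM (2.40), and SLC22A15, an organic ion transporter, only just passed the minimum with 0.0937 to 1.04 FPKM (2.92).

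The promoters of IL24, CD55 and IL6R are shown because these genes rose and their windows hold the RUNX letters, and that of CDC20, a fallen gene, because it holds the letters of a cell cycle element. Each run gives 300 bases of the RefSeq promoter window (250 bases before the annotated start and 50 after it, plus strand), whose sequence matched GRCh37 (hg19) at 1 place. The IL24 window lies at chr1:207070538-207070837, that of CD55 at chr1:207494773-207495072, that of IL6R at chr1:154377569-154377868 and that of CDC20 at chr1:43824402-43824701. Capitals mark TGNGGT on either strand (RUNX) and TGANTCA (AP-1) in the first 3, and TTTGAA on either strand (CHR, the cell cycle genes homology region) in the last.
IL24: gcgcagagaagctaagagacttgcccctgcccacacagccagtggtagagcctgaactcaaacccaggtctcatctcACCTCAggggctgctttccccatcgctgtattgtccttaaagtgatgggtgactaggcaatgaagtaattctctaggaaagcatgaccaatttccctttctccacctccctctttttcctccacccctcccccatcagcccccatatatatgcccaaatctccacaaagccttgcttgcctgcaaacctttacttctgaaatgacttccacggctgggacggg
CD55: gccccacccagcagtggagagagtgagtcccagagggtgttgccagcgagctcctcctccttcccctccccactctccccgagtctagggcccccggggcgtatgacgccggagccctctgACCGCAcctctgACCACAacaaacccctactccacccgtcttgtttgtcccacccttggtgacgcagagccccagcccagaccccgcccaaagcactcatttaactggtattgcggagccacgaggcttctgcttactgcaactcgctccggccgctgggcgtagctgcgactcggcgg
IL6R: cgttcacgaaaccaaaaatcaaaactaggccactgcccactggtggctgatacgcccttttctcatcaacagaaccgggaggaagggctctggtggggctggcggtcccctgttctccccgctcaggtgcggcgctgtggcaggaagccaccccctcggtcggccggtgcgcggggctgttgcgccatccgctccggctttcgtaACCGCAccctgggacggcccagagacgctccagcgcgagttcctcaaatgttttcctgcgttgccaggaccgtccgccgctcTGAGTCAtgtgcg
CDC20: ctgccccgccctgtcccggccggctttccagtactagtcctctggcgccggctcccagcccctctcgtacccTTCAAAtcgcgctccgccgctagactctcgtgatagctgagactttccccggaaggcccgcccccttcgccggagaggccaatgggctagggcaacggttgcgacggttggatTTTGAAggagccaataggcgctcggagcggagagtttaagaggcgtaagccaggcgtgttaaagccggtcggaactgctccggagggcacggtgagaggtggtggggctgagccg
IL24 held the RUNX letters at 1 place, as ACCTCA, and CD55 at 2 places, as ACCGCA and ACCACA, 12 bases apart. IL6R held them at 1 place, as ACCGCA, and its second run of capitals, downstream of the start, is the AP-1 letters. ACCGCA also lies in the RUNX site GACCGCA that the study deleted at ARF. The IL24 match and the second CD55 match differ from it at the open base of TGNGGT. Over all 21 risen named genes with a promoter, 11 held the RUNX letters in a window (52.4%), as did 8 of 19 fallen genes (42.1%), 240 of the 490 named genes with a promoter (49.0%) and 48.2% of 27305 genes. These shares lay close together. The AP-1 letters were in 4 of the 21 risen genes (RASSF5, PLEKHO1, HSPA6 and IL6R), in 1 of the 19 fallen genes (TMCC2) and in 9.37% of all genes. The CHR letters were in 3 risen genes (HIST3H2BB, ATF3 and ZBED6) and 2 fallen genes (CDC20 and TMCC2), against 18.2% of all genes, and the CRE letters TGACGTCA in none of either group, against 2.25%. A match of letters is a description and does not show that a factor binds there.

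**Figure D2:**
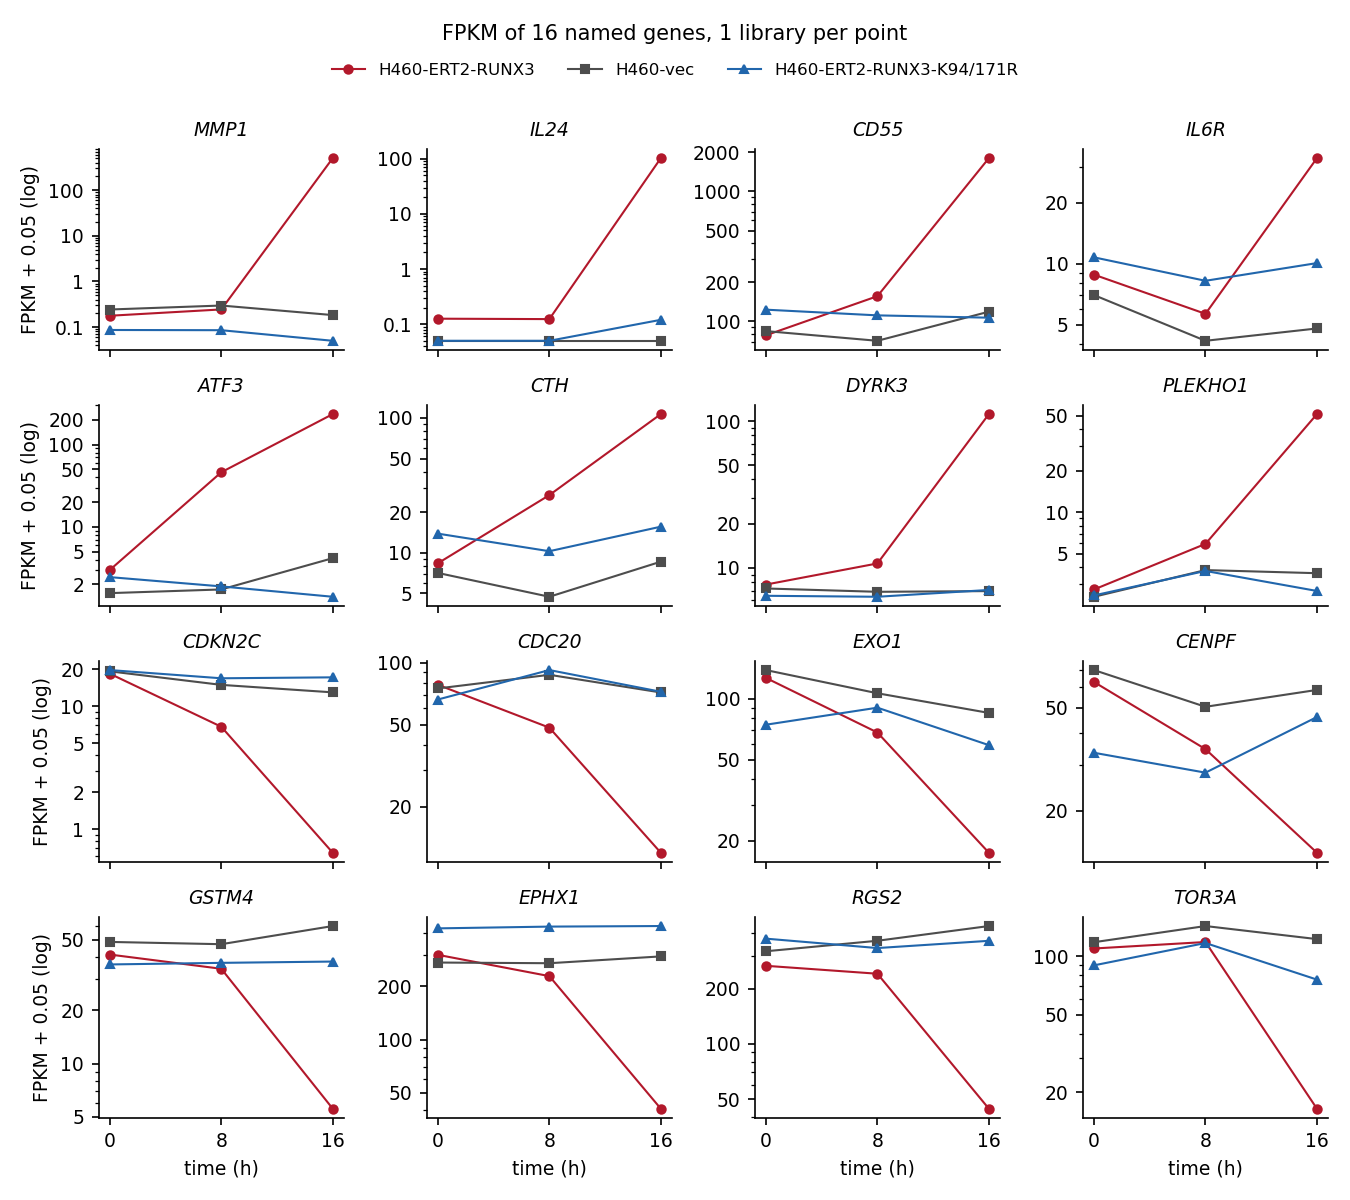
FPKM + 0.05 (log axis) at 0, 8 and 16 h (x axis) of 16 named genes in H460-ERT2-RUNX3, H460-vec and H460-ERT2-RUNX3-K94/171R cells, 1 library per point, the K94/171R values from a table made separately. In all 16 panels the 16 h point of H460-ERT2-RUNX3 lies apart from both other lines, as for MMP1 at 505 FPKM and CDKN2C at 0.593 FPKM.

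Among regulators and enzymes, DYRK3, a protein kinase involved in the dissolution of stress granules, had 7.65, 10.7 and 111 FPKM at 0, 8 and 16 h and a change of 3.38. It stayed between 6.82 and 7.19 FPKM in H460-vec and between 6.31 and 7.02 FPKM in K94/171R, so that only the 16 h library of the wild-type line was high. PLEKHO1, an adaptor that binds casein kinase and regulates actin at the membrane, had 2.70, 5.84 and 51.3 FPKM and a change of 3.12, against -0.07 in H460-vec.

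ATF3, a stress-induced transcription factor of the ATF/CREB family, had 2.95, 46.2 and 235 FPKM at 0, 8 and 16 h in H460-ERT2-RUNX3, 1.52, 1.69 and 4.13 FPKM in H460-vec and 2.41, 1.85 and 1.37 FPKM in K94/171R. Unlike IL24, it was high at 8 h already, with a change of 3.94 from 0 h to 8 h and a further 2.35 to 16 h, and it was the single risen named gene that also passed 1 upward in H460-vec (1.26). RBM15, an RNA-binding protein of the m6A writer complex, went from 5.60 to 25.7 FPKM (2.19), a change of 1.87 after rescaling to the same sum. IGFN1, known from muscle, went from 16.1 to 71.9 FPKM (2.15) while it went from 1.28 to 0.215 FPKM in H460-vec.

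CCDC30, a coiled-coil protein of little known function, went from 0.125 to 21.3 FPKM (6.93, or 4.31 with a pseudocount of 1) and was below 0.1 FPKM in all libraries of both other lines. LOC339524 (5.05), RASSF5 (3.76), DRAXIN (3.33) and TBX19 (3.14) completed the 12 largest rises of named genes. They stood at 2.30, 1.64, 1.60 and 3.22 FPKM at 16 h, and all were below 0.4 FPKM at 8 h. These 4 and SLC22A15 were near 0 at 8 h and passed 2 with the pseudocount of 0.05 but not with 1. The nearest named genes to the threshold were TSSK3, just inside at 1.01 to 4.18 FPKM, and CTH, just outside at a change of 1.996 from 26.7 to 107 FPKM. ZBED6 (2.08) and ZC3H11A (1.74) share 1 locus and cannot be told apart with certainty.

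Fallen genes included regulators of the cell cycle and of signaling. CDKN2C, the INK4 inhibitor p18 of CDK4 and CDK6, had 18.4, 6.78 and 0.593 FPKM at 0, 8 and 16 h in H460-ERT2-RUNX3, 19.3, 14.9 and 13.0 FPKM in H460-vec and 19.7, 16.9 and 17.2 FPKM in K94/171R. In the wild-type line its change was -1.44 from 0 h to 8 h, and it then fell by 3.41 to 16 h, or by 2.29 with a pseudocount of 1. RGS2, a regulator that shortens signaling of Gq-coupled receptors, had 266, 241 and 44.2 FPKM against 319.6, 365 and 439 FPKM in H460-vec, a fall by 2.44 that came between 8 h and 16 h. In both the 16 h library of the wild-type line was the lowest of the 9.

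TOR3A, an interferon-inducible ATPase of the endoplasmic reticulum, went from 118 to 16.4 FPKM (-2.84) and HPDL, a mitochondrial dioxygenase, from 5.58 to 0.840 FPKM (-2.66). OLFML3, a secreted olfactomedin family protein, had 14.2, 7.54 and 0.726 FPKM in H460-ERT2-RUNX3 and a change of -3.29. Its level differed between the lines beforehand, at 2.36, 1.57 and 1.87 FPKM in H460-vec and 17.6, 17.5 and 13.9 FPKM in K94/171R. S100A9, a calcium-binding protein of myeloid cells and stressed epithelium, had the largest fall by value among named genes (-3.85). It fell from a low level, 2.65 to 0.137 FPKM, and was higher in H460-vec throughout (14.9, 13.6 and 22.7 FPKM). In K94/171R it was near 0 throughout (0, 0.167 and 0.341 FPKM), so its level also differed between the lines beforehand. SLC44A3 (-3.15), IKBKE (-2.60) and NPR1 (-2.45) were below 6 FPKM at 8 h, and none of these 3 or S100A9 or HPDL passed 2 with a pseudocount of 1. The gene just inside the threshold was CDC20 (-2.02) and the gene just outside was EXO1 (-1.97).

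**Figure D3:**
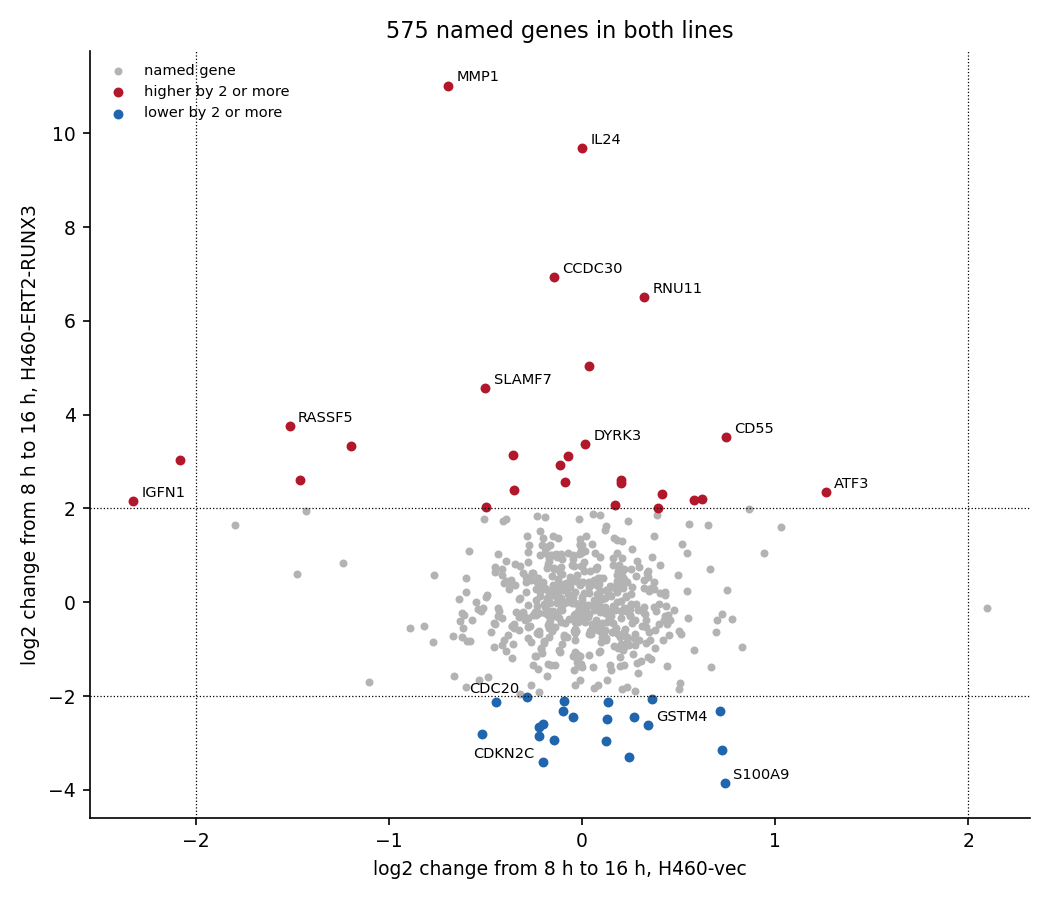
Log2 change from 8 h to 16 h of the 575 named genes in H460-ERT2-RUNX3 (y axis) and H460-vec (x axis), 1 library per line and time, dotted lines at 2 and -2. The 27 risen genes (red) and 21 fallen genes (blue) of H460-ERT2-RUNX3 lie mostly near 0 in H460-vec, with a median of -0.07 and -0.05 there.

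In H460-vec the 27 risen named genes had a median change of -0.07, with 21 of them within 1 of 0. There, 1 was past 1 in the same direction (ATF3) and 5 in the other (RASSF5, DRAXIN, HIST3H2BB, HSPA6 and IGFN1). The balance was the reverse over all 505 risen genes, of which 62 passed 1 upward in H460-vec and 39 passed 1 downward. All 21 fallen named genes lay within 1 of 0 there, with a median of -0.05. In K94/171R, 22 of the risen genes had a matching identifier, with a median of 0.05. Of these, 5 passed 1 upward (IL24, DRAXIN, HIST3H2BB, SWT1 and C1orf51), each from a level below 1 FPKM, and TSSK3 passed 1 downward. Of the 20 fallen genes matched, HPDL passed 1 downward, SAMD13 and HIST2H2AC passed 1 upward, and the median was 0.02. No named gene that fell in the wild-type line thus passed 1 in H460-vec, where 97.8% of all genes lay within 1 of 0. Of all 415 fallen genes, 9 passed 1 downward in H460-vec and 19 passed 1 upward.

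The gene lists describe what moved together, and each is read beside 4.30% risen and 3.53% fallen, 14.3% and 15.0% past 1, and a median of -0.01 over all genes. Genes of mitosis were mostly lower at 16 h. Of 11 genes of mitosis and spindle, 5 were below -1, none was above 1, 9 were below 0, and the median was -0.81, against 0.15 in H460-vec. CDC20, the activator of the anaphase-promoting complex, had 78.0, 48.3 and 11.9 FPKM at 0, 8 and 16 h and 74.9, 87.2 and 71.6 FPKM in H460-vec, a fall by 2.02 that did not pass 2 with a pseudocount of 1. The others below -1 were KIF2C, a kinesin that depolymerizes microtubules (30.3 to 11.1 FPKM, -1.45), CENPF of the outer kinetochore (34.5 to 13.7 FPKM, -1.33), CDCA8 of the chromosomal passenger complex (12.8 to 5.88 FPKM, -1.12) and NUF2 of the NDC80 complex (45.1 to 20.9 FPKM, -1.11). The list was not uniform. CKS1B, a subunit of cyclin-dependent kinases, had 266, 393 and 349 FPKM (-0.17), and RCC1, which loads Ran with GTP on chromatin, had 96.7, 76.0 and 96.9 FPKM (0.35).

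DNA replication and repair genes showed the same direction with a smaller median, -0.49 over 12 genes, 3 below -1 and none above 1. The medians of the list in H460-vec (-0.18) and K94/171R (-0.27) were also below 0. EXO1, an exonuclease of mismatch repair and recombination, had 126, 68.0 and 17.4 FPKM at 0, 8 and 16 h (-1.97), against 138, 106 and 84.9 FPKM in H460-vec, where it also declined by a smaller amount. CDC7, the kinase that fires replication origins, had 16.9, 12.7 and 3.70 FPKM (-1.77), and RAD54L, a motor of homologous recombination, had 7.19, 5.73 and 2.70 FPKM (-1.07). USP1 was near its level at 8 h (44.2 to 38.4 FPKM, -0.20). In nucleotide metabolism (7 genes, median -0.33), CTPS1, which makes CTP, was below -1 (43.4 to 21.2 FPKM, -1.03) and AK4, a mitochondrial adenylate kinase, was above 1 (5.74 to 11.8 FPKM, 1.04).

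Genes tied to growth arrest and to stress were mostly higher at 16 h, and several of them were above their 0 h level at 8 h already. Of 9 genes in the list of p53 targets and growth arrest, 4 were above 1 (ATF3, BTG2, MDM4 and SESN2), 2 below -1 (CDKN2C and DFFB), and the median was 0.71, against -0.12 in H460-vec and 0.21 in K94/171R. With equal sums the median was 0.40 and MDM4 (0.78) and SESN2 (0.72) were within 1, as was DFFB (-0.61) with a pseudocount of 1. BTG2, an antiproliferative regulator of mRNA deadenylation, had 5.07, 5.15 and 18.2 FPKM at 0, 8 and 16 h (1.82), and thus stood higher only at the last time. In K94/171R it had 16.0, 9.49 and 34.1 FPKM, a change of 1.84, so a value past 1 was not confined to the wild-type line. MDM4, an inhibitor of p53, had 5.98, 9.21 and 19.8 FPKM (1.10). GADD45A, a stress sensor induced by p53 and by ATF4, had 15.9, 80.1 and 131 FPKM, with a change of 2.33 to 8 h and of 0.71 after it, against 0.80 after 8 h in K94/171R. DFFB, the nuclease of apoptotic DNA fragmentation, went from 2.04 to 0.990 FPKM (-1.01).

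In the list of the integrated stress response and amino acid supply, 3 of 7 genes were above 1 (ATF3, CTH and SESN2), none below -1, and the median was 0.71, against 0.37 in H460-vec and 0.15 in K94/171R. This list shares ATF3, SESN2 and GADD45A with the list before it, and GADD45A gives the median of both. CTH, which makes cysteine from cystathionine, had 8.30, 26.7 and 107 FPKM at 0, 8 and 16 h in H460-ERT2-RUNX3 and 7.03, 4.66 and 8.53 FPKM in H460-vec. SESN2, a leucine sensor that restrains mTORC1, had 2.61, 22.4 and 46.1 FPKM, and SARS, the cytosolic seryl-tRNA synthetase, had 78.7, 178 and 242 FPKM (0.44). These 3 were higher at each later time in the wild-type line, and SESN2 and SARS (70.9, 74.3 and 96.1 FPKM) also in H460-vec, where their changes after 8 h were 0.54 and 0.37. PHGDH, the first enzyme of serine synthesis, went the other way after 8 h, with 63.2, 110.2 and 58.2 FPKM (-0.92). It returned to near its level at 0 h.

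Immediate early and AP-1 related genes had the highest median of the lists of 3 or more genes, 1.09 over 7 genes, against -0.19 in H460-vec. This list is not separate from the others. ATF3 and BTG2 are also in the list of p53 targets and growth arrest, ATF3 in that of the integrated stress response, and ZC3H12A in that of cytokines. Above 1 were ATF3, BTG2, IER5, an immediate early gene linked to heat shock factor (23.8 to 61.7 FPKM, 1.37), and ZC3H12A, the RNase Regnase-1 that degrades cytokine transcripts (7.07 to 15.1 FPKM, 1.09). RGS2 was below -2. CYR61, a matricellular target of YAP and AP-1, had 33.5, 4.01 and 5.00 FPKM, so it was low at 8 h and stayed low (0.31). The higher level at 16 h therefore did not extend to all members of the list.

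Genes of the interferon response were divided. Of 9, IFI16 and ISG15 were above 1, while TOR3A, IKBKE, IFI44L and FBXO6 were below -1, with a median of -0.26. IFI16, a nuclear DNA sensor, had 58.7, 139 and 475 FPKM at 0, 8 and 16 h in H460-ERT2-RUNX3, 43.8, 39.9 and 39.5 FPKM in H460-vec and 20.9, 21.8 and 18.3 FPKM in K94/171R. It was higher at each later time in the wild-type line (1.77 after 8 h) and level in the others. ISG15, a ubiquitin-like modifier, went from 5.46 to 17.6 FPKM (1.68), and IFI44L went from 4.67 to 1.29 FPKM (-1.82). Of IKBKE, a kinase upstream of interferon regulatory factors, little was present (1.51 to 0.208 FPKM).

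Of 18 genes on the list of cytokines and their receptors, 9 passed the minimum, with IL24, IL6R and ZC3H12A above 1, TNFRSF8 and ARTN below -1, and a median of -0.10. TGFB2, a ligand of the TGF-β family, had 16.0, 6.28 and 3.58 FPKM at 0, 8 and 16 h (-0.80), and CSF1, the macrophage growth factor, had 12.4, 6.25 and 3.99 FPKM (-0.64). Both were lower at each later time. TNFRSF8 (1.72 to 0.493 FPKM, -1.71) was also below -1 in H460-vec (-1.10), and ARTN, a ligand of the GDNF family, was near the minimum (1.49 to 0.546 FPKM, -1.37). With a pseudocount of 1, TNFRSF8 (-0.87), ARTN (-0.69) and ZC3H12A (0.995) were within 1, and ZC3H12A was at 0.77 with equal sums.

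For the extracellular matrix and its proteases (12 genes, median -0.39, 0.23 in H460-vec), MMP1 rose and 4 genes were below -1. These 4 were OLFML3, ADAM15, a transmembrane metalloproteinase (111 to 38.9 FPKM, -1.51), AGRN, the heparan sulfate proteoglycan agrin (18.5 to 7.17 FPKM, -1.36), and PLOD1, a lysyl hydroxylase of collagen (40.9 to 18.1 FPKM, -1.18). ADAM15 shares its locus with EFNA4 (-0.75). LAMC1, the laminin γ1 chain, had 189, 114 and 65.5 FPKM at 0, 8 and 16 h and 162, 142 and 174 FPKM in H460-vec, lower at each later time in the wild-type line alone (-0.80). Thus MMP1 was the 1 risen gene of the list.

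Enzymes of glutathione and NADPH had the lowest median of the lists of 4 or more genes, -1.06 over 9 genes, and all 9 were below 0. In H460-vec their median was 0.13. Of the 9, 4 fell past 2 and PGD passed -1. GSTM4, a glutathione transferase of the mu class (XLOC_000570, chr1:110198698-110208123), had 41.2, 34.3 and 5.50 FPKM at 0, 8 and 16 h in H460-ERT2-RUNX3, 48.6, 47.2 and 59.8 FPKM in H460-vec and 36.3, 37.0 and 37.6 FPKM in K94/171R. GSTM2 went from 6.42 to 0.799 FPKM (-2.93) and GSTM1 from 59.2 to 13.5 FPKM (-2.13). These 3 lie next to each other and are close in sequence, so reads may be shared between them and they do not count as independent.

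EPHX1, the microsomal epoxide hydrolase that opens reactive epoxides, lies elsewhere on the chromosome (chr1:225997797-226070420) and had 302, 229 and 40.6 FPKM at 0, 8 and 16 h, against 273, 271 and 296 FPKM in H460-vec and 427, 437 and 440.1 FPKM in K94/171R. The 16 h library of the wild-type line was the lowest of the 9, and the gene was 5.64-fold lower than at 8 h on the FPKM + 0.05 scale. PGD, which makes NADPH in the pentose phosphate pathway, had 508, 533 and 255 FPKM (-1.06). PRDX6, a peroxiredoxin, had 359.9, 374 and 327 FPKM (-0.19) and MGST3 had 51.4, 58.0 and 44.5 FPKM (-0.38), so the abundant members of the list differed in size of change. The summed FPKM of the 9 genes was 1397, 1366 and 733 at 0, 8 and 16 h in H460-ERT2-RUNX3, and 1418 and 1548 at 8 h and 16 h in H460-vec.

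**Figure D4:**
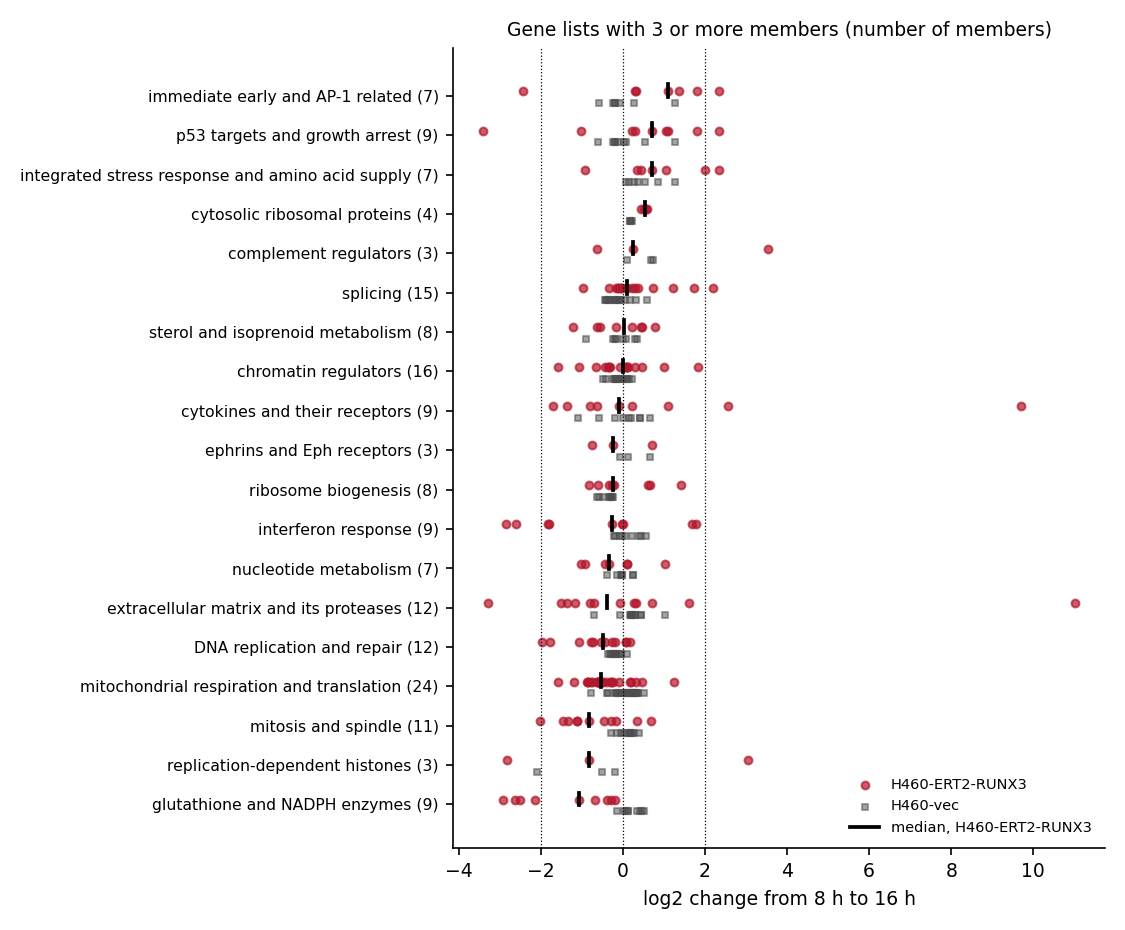
Log2 change from 8 h to 16 h of the members of each gene list with 3 or more members at 1 FPKM or more (number in brackets) in H460-ERT2-RUNX3 (circles) and H460-vec (squares), with the median of H460-ERT2-RUNX3 as a bar and 1 library per line and time. Medians run from -1.06 for glutathione and NADPH enzymes to 1.09 for immediate early and AP-1 related genes.

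Mitochondrial genes were lower as a group but by little. Of 24 genes of respiration and translation in mitochondria, 19 were below 0 and the median was -0.54, against 0.11 in H460-vec, but only TOMM40L (8.17 to 2.71 FPKM, -1.58) and ATAD3A (20.7 to 9.06 FPKM, -1.19) were below -1 and PINK1 (2.69 to 6.40 FPKM, 1.24) was above 1. ATPIF1, the inhibitor of ATP synthase, had 156, 153 and 83.3 FPKM at 0, 8 and 16 h (-0.87). PINK1 is the kinase that marks damaged mitochondria for removal. The 4 cytosolic ribosomal proteins were all higher, with a median of 0.53 that was 0.21 after rescaling to the same sum. RPS27, the most abundant named gene, had 4655, 6594 and 9881 FPKM at 0, 8 and 16 h and 5939.6, 5849.7 and 6636 FPKM in H460-vec. Ribosome biogenesis had a median of -0.25 over 8 genes against -0.31 in H460-vec and -0.90 in K94/171R, with DIEXF alone past 1 in the wild-type line (10.9 to 28.9 FPKM, 1.40).

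Splicing factors (15 genes, median 0.09) and chromatin regulators (16 genes, median 0.01) had medians near 0 that were negative after rescaling to the same sum. In the first list RBM15, PRPF3 (31.6 to 105 FPKM, 1.73) and PRPF38B (12.5 to 29.1 FPKM, 1.22) were above 1 and none was below -1, and the cyclophilin PPIH of the tri-snRNP was lowest (58.5 to 29.6 FPKM, -0.98). Among chromatin regulators, PHF13, a reader of methylated H3K4 (3.86 to 13.9 FPKM, 1.84), and PRDM2 (4.66 to 9.43 FPKM, 1.01) were above 1, and PRMT6, an arginine methyltransferase (11.6 to 3.81 FPKM, -1.59), and the deacetylase HDAC1 (23.1 to 11.0 FPKM, -1.07) were below -1. Sterol and isoprenoid genes had a median of 0.03 over 8 genes that was negative after the same rescaling, with SCP2 below -1 (43.1 to 18.7 FPKM, -1.20). FDPS of the mevalonate pathway had 162, 394 and 349 FPKM at 0, 8 and 16 h, and 180.3, 378 and 462 FPKM in H460-vec, higher at 8 h and 16 h than at 0 h in both.

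Small lists gave single values. Of 6 complement regulators, 3 passed the minimum, among them CD55 and CD46, with a median of 0.25 that was negative after rescaling to the same sum. The ephrins EFNA1, EFNA3 and EFNA4 changed by 0.72, -0.23 and -0.75. EFNA1 had 51.9, 12.6 and 20.7 FPKM at 0, 8 and 16 h and 36.6, 15.4 and 24.4 FPKM in H460-vec, so both lines were lowest at 8 h. Of 32 genes of epidermal differentiation, S100A9 was the 1 gene that passed the minimum. Of the replication-dependent histones, HIST3H2BB (0.211 to 2.10 FPKM, 3.04), HIST2H2AC (3.12 to 0.400 FPKM, -2.82) and HIST2H2BA (1.74 to 0.956 FPKM, -0.83) passed, all at low FPKM from libraries made for polyadenylated RNA. The small nuclear RNA gene RNU11, listed at 8.81, 0 and 4.53 FPKM at 0, 8 and 16 h, is not polyadenylated either. At 16 h it was thus below its 0 h level, and H460-vec had 20.6, 16.8 and 20.9 FPKM. RNU11 is counted among the 27 risen named genes, and it and the histone genes were left out of the 12 largest rises and falls.

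The position of the named genes along the chromosome was examined after their values had been seen. Within 500 kb on either side of IL24 lie 7 named genes at 1 FPKM or more, of which 4 rose (RASSF5, DYRK3, IL24 and CD55), 2 more were above 1 (MAPKAPK2 and PFKFB2) and 1 fell (IKBKE), where 4.70% of all named genes rose. The window was centred on a risen gene, so IL24 itself is among the 4, and windows around genes that neither rose nor fell were not examined. MAPKAPK2, a kinase downstream of p38 that stabilizes cytokine transcripts, had 25.7, 25.4 and 64.0 FPKM at 0, 8 and 16 h (1.33), and PFKFB2, which sets fructose 2,6-bisphosphate, had 1.43, 7.04 and 16.5 FPKM (1.22). No other window around a risen or fallen named gene apart from those of its neighbours held more than 2 risen named genes. CD46, the next named gene at 1 FPKM or more beyond CD55, lay outside the pattern. Nearly all named genes lie on the plus strand, so other genes of this interval were not analysed here.

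Exon length was known for 552 of the 575 named genes. In 3 groups of 184 genes by exon length, the median change was -0.21 in the shortest, -0.03 in the middle and -0.03 in the longest group, against 0.04, -0.04 and -0.03 in H460-vec. The shortest group held 14 fallen and 7 risen genes, the middle group 3 and 10, and the longest group 3 and 6. Fallen named genes were therefore shorter on the whole than risen ones, and the part of RNA quality in this was not tested. Of genes without a symbol, the largest rise was that of XLOC_011023, listed at 0 at 8 h and at 1016 FPKM at 16 h, and the largest fall that of XLOC_009884, from 2191 FPKM to 0. In H460-vec the first was at 410 FPKM at 8 h and 0 at 16 h and the second at 0 and 1692 FPKM, so both alternate between 0 and high values across libraries of both lines.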

How the data were processed

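RNA-seq libraries of 3 H460 lines (H460-vec, wild-type fusion, K94/171R fusion) at 0, 8 and 16 h were used, 1 for each line and time. Libraries were prepared from polyadenylated RNA with a stranded kit. According to the submitters' processing notes and the methods of the study, the reads were trimmed with Cutadapt, mapped to hg19 with STAR 2.5.0 and quantified with Cufflinks and Cuffdiff 2.2.1. The files hold gene FPKM as deposited and computed by the authors, with a table of 24331 genes for H460-vec and H460-ERT2-RUNX3 and a table of 19869 genes for K94/171R. The annotation, any scaling between libraries and strand use in counting are not given in the sources used here. FPKM holds no read counts, so the depth of a library is unknown. In low values the ratio of the 16 h to the 8 h library was most often 1.98, in just 27 of 2057 genes below 0.5 FPKM, too few for a relative depth.

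Changes were computed within a table as log2 ratios with a pseudocount of 0.05, for genes that reached 1 FPKM in either library, in Python 3.11.15 with numpy 2.4.6 and pandas 2.3.3, and plots with matplotlib 3.10.9. The log2 scale with a pseudocount understates the change of low genes. Symbols, loci and Ensembl identifiers were taken from a supplementary table of the study, of which the part that could be read was used, and no value was taken from it. Its starts were raised by 1. K94/171R genes were matched by Ensembl identifier, 546 of 575. Promoters came from RefSeq (GRCh38.p14), matched by symbol for 490 of 561 genes with 1 symbol, 151 of them with several windows, and a gene held a motif if any window did. Exon lengths came from GENCODE on GRCh37. The genes named are drawn from the 12 largest rises and falls past 2, up to 4 members of each of 20 gene lists and 4 marker lists, and list members in counts of 5 or fewer, with small RNA and histone genes given apart. Genes named besides these, among them neighbours and further list members, were chosen after their values were seen. Members and lists were chosen with earlier results of these data known. With 1 library a side, no test was made. The computation was tested on simulated data. Alternatives were a pseudocount of 1, other FPKM minimums, rescaling to the same sum, median centring and a threshold of 1.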

Additional observations from a re-analysis of the deposited data

Results flagged for a closer look

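For 3 named genes, the change from 8 h to 16 h passed 2 upward in H460-ERT2-RUNX3 and 1 downward in H460-vec, with at least 1 FPKM in 1 library of each line. IGFN1 changed by 2.15 in the first line and by -2.32 in the second, HIST3H2BB by 3.04 and -2.08, and HSPA6 by 2.61 and -1.46. The H460-vec levels behind these values did not exceed 1.28 FPKM, and the difference between the lines was not tested.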

How the results depend on the processing

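The counts of risen and fallen genes depended on how low values were treated. Against 505 risen and 415 fallen genes, or 399 and 356 with the distance from H460-vec, a pseudocount of 1 gave 261 and 160, or 214 and 138. Without a minimum the counts were 860 and 695, or 687 and 570, and with a minimum of 5 FPKM 312 and 243, or 240 and 202. A minimum of 1 FPKM in both libraries, chosen after seeing the data, gave 230 and 188, or 166 and 150. A threshold of 1 gave 1680 and 1762, or 1392 and 1540. Rescaling to the same sum gave 655 fallen genes. All other counts under this rescaling and under median centring were within 1.5 times. The median over all genes went from -0.01 to -0.33 with the same sum. This is less than 0.69, the SD of the changes in H460-vec, as it was in each alternative. That SD is a spread over single genes and a wide limit for a median, so it does not show the median to be stable.

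Of 93 named genes, 22 moved by 0.69 or more with a pseudocount of 1. Of 22 list medians, 2 moved by as much with a pseudocount of 1 (epidermal differentiation and fibroblast markers, each with 1 member). None did so with the scalings, which shifted most genes by about -0.32 (same sum) and 0.005 (median centring). A move of 0.69 was therefore not possible with them. Of the 32 past 2, 19 stayed past 2 with a pseudocount of 1, 31 with the same sum (all but RBM15) and 32 with median centring. Of the 70 past 1, 60 stayed past 1 with a pseudocount of 1, where ZC3H12A, AK4, PRDM2, DFFB, CTPS1, RAD54L, ARTN, TNFRSF8 and SLC22A15 were among those lost, and 63 with the same sum, where PINK1, PRPF38B, MDM4, ZC3H12A, SESN2, AK4 and PRDM2 were lost. The same sum also took 8 others past -1 (EFNA4, DCLRE1B, HIST2H2BA, MRTO4, ATPIF1, NTPCR, PHGDH and PPIH), 4 past -2 (CDC7, FBXO6, IFI44L and EXO1) and the medians of mitosis (-1.13) and histones past -1, and median centring took CTH past 2. The median of the immediate early list was not past 1 with the same sum (0.77) or with a pseudocount of 1 (0.995), and stayed past 1 with median centring (1.09). CD46 and SFN changed sign with the same sum, as did the medians of 4 lists (complement regulators, sterol and isoprenoid metabolism, chromatin regulators and splicing). No paired analysis was possible because each group has 1 library and no result comes from a test.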

Other observations

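Some named genes outside the lists also differed between 8 h and 16 h in H460-ERT2-RUNX3. GPR137B, a lysosomal membrane protein, had 3.44, 9.41 and 35.0 FPKM at 0, 8 and 16 h, against 4.10, 3.28 and 3.42 FPKM in H460-vec. The change after 8 h was 1.89, below the threshold. SWT1, an endoribonuclease that takes part in transcript quality control, went from 1.14 to 7.04 FPKM, and HHAT, which attaches palmitate to hedgehog proteins, changed by 2.21 from 0.912 FPKM. HSPA6, an inducible heat shock protein, went from 0.490 to 3.25 FPKM. Among fallen genes, MARC1, a mitochondrial amidoxime-reducing enzyme, had 3.69, 1.41 and 0.289 FPKM, and FAM213B, a prostamide synthase, had 6.34, 3.06 and 0.663 FPKM. Both were lower at each later time and above 5 FPKM in all 3 H460-vec libraries. These genes were chosen after their values were seen.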
